A study of Mus musculus with 16 samples.

Results

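The 4 genes followed here carry extracellular nucleotides through to adenosine and inosine, as read from RNA of sorted natural killer (NK) cells. They are the ectonucleotidases Entpd1 and Nt5e, the adenosine receptor gene Adora2a and the adenosine deaminase gene Ada. All were taken by symbol from the deposited count table, where they are 4 of 49671 genes, and all 4 passed the filter on low counts. The 16 libraries fall into 4 groups of 4. They are lung NK cells from mice given diphtheria toxin (lung DT), lung NK cells from mice given PBS (lung PBS), NK cells of the axillary tumour-draining lymph node (LN) from mice given DT (LN DT), and LN NK cells from mice given PBS (LN PBS). Every mouse was of the FVB/N background with the genotype Cdh1F/F;Trp53F/F;Foxp3GFP-DTR and carried an orthotopically transplanted KEP mammary tumour of 100 mm2, so the PBS mice share both the alleles and the tumour with the DT mice. DT was given as 25 ug at T = 0 and T = 7 and PBS at the same points, without a unit of time in the labels. The labels give no age and name no Cre.

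The Foxp3GFP-DTR allele places the DT receptor in cells that express Foxp3, the regulatory T cells, so DT addresses how NK cells look once those cells are targeted. The sorted cells themselves were live, CD45+, CD3-, NKp46+ and DX5+, with 5000 to 10000 cells per library. No library held more than 9 counts of Foxp3, and how far regulatory T cells were depleted was not analysed here. The lungs, per the labels' protocol, were digested with an enzyme mix at 37 °C and had red cells lysed, and no such step is given for LN, so tissue and dissociation cannot be told apart. Sequencing libraries were made from bulk RNA by Smart-seq2, a full-length method, so fewer cells of a type and less RNA per cell cannot be told apart.

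Extracellular ATP leaves stressed or dying cells and acts on P2 receptors. The enzyme encoded by Entpd1 (CD39) removes its phosphates step by step to AMP, and the enzyme encoded by Nt5e (CD73) turns AMP into adenosine. Adenosine binds the A2a receptor, which raises cyclic AMP and is known to restrain killing and maturation of mouse NK cells, while adenosine deaminase ends the signal by making inosine. CD39 is also well known on regulatory T cells, B cells, macrophages and endothelium.

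Entpd1 was the member with a difference past the threshold, so its start regions are shown. Entpd1 (ENSMUSG00000048120) lies on chromosome 19 at 40612366 to 40741602, plus strand, of GRCm38, with 17 separate exon blocks that cover 5580 bases. RefSeq (GRCm38.p6) gives 2 starts for it, at chr19:40612116-40612415 and chr19:40659520-40659819, each window being 300 bases on the plus strand that end just past the start. Gene counts do not tell transcripts of the 2 starts apart. Capitals mark CGTCA, which is TGACG, the short core of the cyclic AMP response element, read on the other strand.
Entpd1 upstream start: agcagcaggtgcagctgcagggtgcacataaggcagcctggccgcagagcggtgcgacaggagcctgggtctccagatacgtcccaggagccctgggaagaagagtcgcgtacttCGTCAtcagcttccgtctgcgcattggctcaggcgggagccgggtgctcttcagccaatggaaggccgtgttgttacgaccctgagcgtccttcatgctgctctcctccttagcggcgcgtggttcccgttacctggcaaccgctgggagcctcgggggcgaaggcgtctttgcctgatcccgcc
Entpd1 downstream start: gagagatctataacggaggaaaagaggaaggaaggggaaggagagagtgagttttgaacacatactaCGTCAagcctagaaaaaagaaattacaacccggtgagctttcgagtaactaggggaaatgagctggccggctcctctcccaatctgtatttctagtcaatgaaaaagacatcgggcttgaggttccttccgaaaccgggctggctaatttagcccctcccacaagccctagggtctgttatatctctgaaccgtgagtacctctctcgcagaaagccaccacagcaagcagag

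Each of the 2 Entpd1 regions held TGACG once, and neither held the full element TGACGTCA. Searched on both strands, TGACG was present in 20.8% of 32851 RefSeq promoters of the same length and TGACGTCA, which contains it, in 1.79%. The upstream region was richer in G and C, at 64.0%, than the downstream region, at 48.7%. The RefSeq start region of Nt5e (chr9:88327359-88327658, plus strand) lies inside the gene's span in the count table, which begins at 88327197. It had 71.0% G and C, 4 GC boxes GGGCGG, some of them overlapping, and no TGACG. The start region of Ada (chr2:163750190-163750489, minus strand) had 68.0% G and C, 2 GC boxes and no TGACG, and GC boxes were present in 35.7% of promoters. These matches are descriptions of sequence and were not tested against expression.

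Total counts per library ran from 3929560 to 10744934, and 13940 genes passed the filter. All libraries carried the RNA of the sort markers, with Ncr1 (NKp46) between 2460 and 7920 CPM (counts relative to library size, after TMM scaling) and Itga2 (DX5) between 62.9 and 160 CPM. Of the CD3 genes, Cd3e reached at most 30.2 CPM, while Cd3g reached 227 CPM and Cd3d 259 CPM. The 7 T cell genes summed to 428 CPM in lung DT 1, against 59.1 to 84.6 CPM in the other lung DT libraries and 38.3 to 76.3 CPM in lung PBS, and to 278 to 491 CPM in LN DT and 356 to 440 CPM in LN PBS. Their part in the results was not tested. The first principal component separated all lung from all LN libraries. On the second, LN DT 1 and lung DT 1 stood apart from the other 14, at 108 and 152 against at most 19.6. The mitochondrial share of counts was 3.75% ± 0.676 in lung DT and 1.65% ± 0.686 in lung PBS, and 3.59% ± 1.62 in LN DT and 1.4% ± 0.292 in LN PBS (SD, n = 4 each). The lung difference gave p = 0.0286 in a two-sided exact permutation test, the smallest p that 4 against 4 allows, and the LN difference gave p = 0.114 (adjusted over 22 such tests, 0.157 and 0.376). The part of this share in the DT results below was not tested beyond a fit with that share as a covariate.

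Per kilobase of exon, a scale on which genes can be compared, Entpd1, Adora2a and Ada were of similar size in lung and Nt5e was far below them. In lung DT the levels were 49.0 ± 14.4 CPM per kilobase for Ada, 37.4 ± 21.4 for Adora2a, 35.8 ± 8.76 for Entpd1 and 1.81 ± 1.85 for Nt5e (SD, n = 4). In lung PBS they were 53.1 ± 7.50 for Ada, 50.3 ± 11.9 for Entpd1, 48.0 ± 13.5 for Adora2a and 3.02 ± 0.946 for Nt5e. In lung the gene of the ATP-degrading enzyme thus stood far above the gene of the adenosine-forming enzyme. In LN DT the levels were 57.4 ± 20.2 CPM per kilobase for Ada, 28.2 ± 17.8 for Adora2a, 18.8 ± 12.1 for Entpd1 and 3.54 ± 1.34 for Nt5e. In LN PBS, Ada stood at 73.6 ± 9.15, Adora2a at 31.9 ± 3.28, Entpd1 at 7.48 ± 1.91 and Nt5e at 4.15 ± 2.15 CPM per kilobase, so that Entpd1 was next above Nt5e there.

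**Figure D1:**
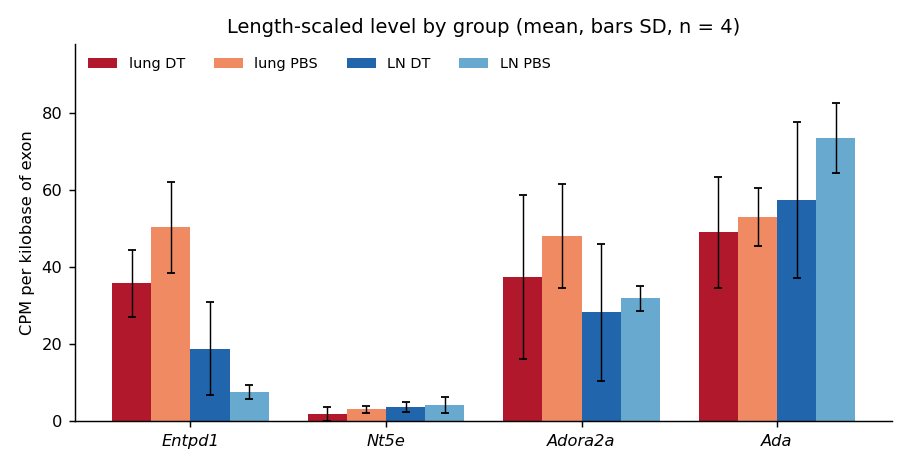
Mean length-scaled level (CPM per kilobase of exon, vertical axis from 0) of the 4 genes in lung DT, lung PBS, LN DT and LN PBS, with bars of 1 SD over 4 libraries. Nt5e is lowest in every group, and Entpd1 runs from 50.3 in lung PBS down to 7.48 in LN PBS.

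Entpd1 RNA was higher in lung than in LN NK cells of PBS mice by 6.72-fold, and this was the one member difference past the threshold. It had 354, 304, 271 and 195 CPM in lung PBS libraries 1 to 4, against 50.5, 51.5, 32.5 and 32.6 CPM in LN PBS libraries 1 to 4. Every lung PBS library lay above every LN PBS library, with a wide gap between the groups. The log2 fold change was 2.75 ± 0.387 (SE; 95% interval 1.94 to 3.56; adjusted p = 0.000432, edgeR's quasi-likelihood test with Benjamini-Hochberg adjustment over all genes tested). Of all genes tested, 3.61% passed in this comparison, 2.7% upward (16.9% at an unadjusted p under 0.05), so 1 of 4 members called is read against those shares. Genes with a higher level in every lung PBS library than in any LN PBS library made up 9.25% of those tested. With scaling by total counts alone, in which the median of all genes was -0.18 instead of -0.01, the Entpd1 value was 2.57, and the calls over all genes split into 298 higher and 229 lower instead of 377 and 126.

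In mice given DT, the tissue difference in Entpd1 was smaller and did not pass. Lung DT libraries 1 to 4 had 141, 222, 182 and 254 CPM, against 44.9, 85.4, 87.7 and 202 CPM in LN DT libraries 1 to 4. The groups overlapped through LN DT 4, which lay above lung DT 1 and 3, while the other LN DT libraries lay below every lung DT library. The log2 fold change was 0.93 ± 0.365 (95% interval 0.16 to 1.69; adjusted p = 0.143, edgeR's quasi-likelihood test), and without LN DT 4 it was 1.46 (adjusted p = 0.017). In this comparison 6.75% of all genes passed (20.9% at an unadjusted p under 0.05) and 0 of 4 members did (1 unadjusted; DESeq2 called 0 and limma-voom called 1, Entpd1, among 12.8% of all genes). Same-numbered DT libraries of the 2 tissues deviated together, and a fit of the 8 DT libraries with the number as a block gave 1.10 (adjusted p = 0.0571).

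Within LN, Entpd1 was 105 ± 67.6 CPM in DT libraries and 41.8 ± 10.7 CPM in PBS libraries (SD, n = 4 each), a fold of 2.52 that did not pass. By library, LN DT 1 lay within the LN PBS values, LN DT 2 and 3 lay above all of them, and LN DT 4 stood well above. The log2 fold change was 1.33 ± 0.369 (95% interval 0.55 to 2.11; unadjusted p = 0.00208, adjusted p = 0.185, edgeR's quasi-likelihood test). The interval lies above 0 for this gene taken alone, and the value ranked 156 of 13940 genes by p. DESeq2 and limma-voom put it past the threshold, at adjusted p = 0.0274 and 0.00113. Without LN DT 4 the log2 fold change was 0.80 (adjusted p = 0.187). In this comparison edgeR called 0.0646% of all genes (11.8% at an unadjusted p under 0.05) and 0 of 4 members (1 unadjusted), against 1 member by DESeq2, which called 2.34% of all genes, and 2 by limma-voom, Entpd1 and Ada, which called 26.7% of all genes.

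Within lung, Entpd1 was 200 ± 48.9 CPM in DT libraries and 281 ± 66.7 CPM in PBS libraries. Lung DT 2 and 4 lay inside the lung PBS values, and lung DT 1 and 3 lay below them. The log2 fold change was -0.49 ± 0.362 (95% interval -1.25 to 0.27; adjusted p = 0.544, edgeR's quasi-likelihood test), and a fit with the mitochondrial covariate gave 0.38. Over all genes 0.108% passed in lung (14.7% unadjusted), and 0 of 4 members did, with 0 at an unadjusted p under 0.05 by edgeR, DESeq2 or limma-voom.

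The DT difference of Entpd1 was therefore above 0 in LN and below 0 in lung, and the difference between those differences was tested directly. LN minus lung gave a log2 value of 1.82 ± 0.517 (95% interval 0.74 to 2.91; unadjusted p = 0.00246, adjusted p = 0.785, edgeR's quasi-likelihood test), which did not pass over all genes. One gene in all, 0.00717% of those tested, passed this test (4.2% unadjusted), and 0 members did by edgeR, DESeq2 or limma-voom, with 1 unadjusted by each. Ordered by mean, the level ran lung PBS, lung DT, LN DT, LN PBS, and no neighbouring pair in that order passed. The comparisons share libraries (LN PBS, for instance, enters both the LN comparison and the tissue comparison), so they are not independent of each other.

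**Figure D2:**
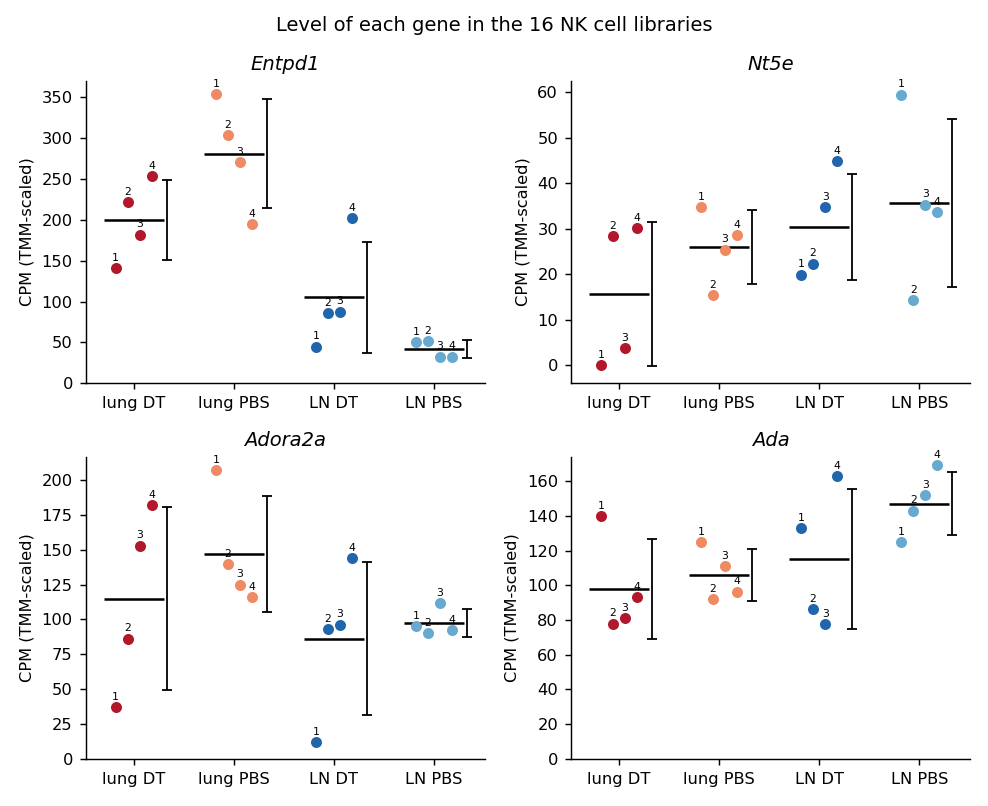
CPM (TMM-scaled, vertical axes) of the 4 genes in each library, numbered 1 to 4 within lung DT, lung PBS, LN DT and LN PBS, with a line at the mean and a bar of 1 SD. Entpd1 of lung PBS, at 195 to 354 CPM, lies above that of LN PBS, at 32.5 to 51.5 CPM, while Nt5e is at 0 in lung DT 1 and Adora2a at 12 CPM in LN DT 1.

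Because other cells carry CD39, the RNA of their markers is given beside Entpd1. The summed level of 7 macrophage and monocyte genes was 1490, 3840, 3440 and 444 CPM in lung DT libraries 1 to 4 and 1110, 3280, 915 and 916 CPM in lung PBS libraries 1 to 4. In LN these genes summed to 219 to 409 CPM in DT libraries and 311 to 427 CPM in PBS libraries, and Adgre1, the F4/80 gene, averaged 0.216 CPM in LN DT and 0.96 CPM in LN PBS. The macrophage sum was thus higher in all lung than in all LN libraries, as Entpd1 was between the PBS groups. By mean, Ly6c2 and Lyz2 made up most of this sum in every group. Ly6c2 averaged 746 CPM in lung PBS, 269 CPM in lung DT, 234 CPM in LN PBS and 158 CPM in LN DT. Lyz2 averaged 648, 1770, 116 and 128 CPM in the same order, so within lung these genes ran opposite ways with DT. Lung DT 4, whose macrophage sum of 444 CPM was close to the LN range, had 254 CPM of Entpd1, and lung DT 2, with the highest sum of 3840 CPM, had 222 CPM. The part of macrophage and monocyte RNA in the Entpd1 difference between tissues was not tested.

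B cell genes were at higher summed levels in 2 of the LN DT libraries. The 7 genes of that list summed to 136, 853, 816 and 94.8 CPM in LN DT libraries 1 to 4 and to 59.4, 122, 96.0 and 86.2 CPM in LN PBS libraries 1 to 4 (exact permutation p = 0.0857, adjusted 0.376). LN DT 2 and 3, with the 2 highest B cell sums, had 85.4 and 87.7 CPM of Entpd1, above every LN PBS library, and LN DT 1 had 44.9 CPM. LN DT 4, with the highest Entpd1 of LN at 202 CPM, had the lowest B cell sum of LN DT, within the LN PBS values. Its mitochondrial share of 1.24% was also within theirs. The 4 regulatory T cell genes summed to 75.5 to 207 CPM in LN DT and 38.8 to 69.4 CPM in LN PBS (exact permutation p = 0.0286, the smallest possible, adjusted 0.157), mostly through Ikzf2 and Il2ra, with Foxp3 itself at a mean of 0.877 CPM in LN DT and 0.265 CPM in LN PBS. Plasma cell genes summed to 409 to 669 CPM in LN DT and 245 to 320 CPM in LN PBS, also without overlap (adjusted p = 0.157, exact permutation test). Of these, Xbp1 averaged 291 CPM in LN DT and 259 CPM in LN PBS, and Jchain 201 and 0.0613 CPM. Of the 5 endothelial genes, Cdh5, Kdr and Tek were at most 1.93, 3.13 and 1.81 CPM in any library, Vwf reached 21.5 CPM and Pecam1 ran from 65.2 to 168 CPM. Together they summed to 141 ± 49.8 CPM in lung DT and 80.5 ± 8.89 CPM in lung PBS, and to 101 ± 24.9 CPM in LN DT and 121 ± 37 CPM in LN PBS (SD, n = 4 each). The 6 dendritic cell genes summed to 108 to 179 CPM in lung DT and 51.6 to 81.9 CPM in lung PBS, without overlap (exact permutation p = 0.0286, adjusted 0.157). Most of the lung sum was Itgax, at means of 69.6 CPM in DT and 26.5 CPM in PBS libraries, and Zbtb46, at 63.8 and 40.2 CPM. In LN the 6 genes summed to 50.7 to 296 CPM in DT libraries and 49.9 to 74.1 CPM in PBS libraries. The part of endothelial, B, plasma, dendritic and regulatory T cell RNA in the Entpd1 values was not tested.

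**Figure D3:**
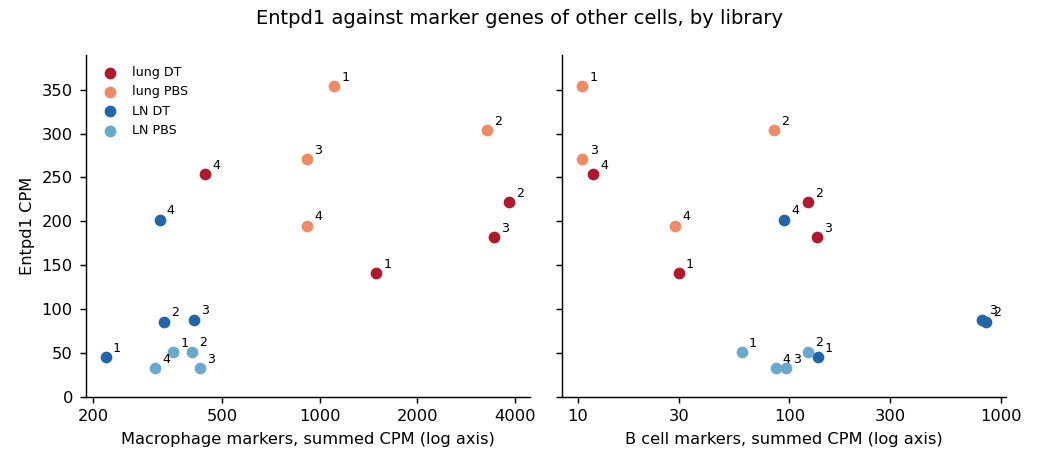
Entpd1 CPM (vertical axis) against the summed CPM of 7 macrophage and monocyte genes (left, log axis) and of 7 B cell genes (right, log axis), one numbered point per library of lung DT, lung PBS, LN DT and LN PBS. Lung DT 4 has 254 CPM of Entpd1 at a macrophage sum of 444 CPM, and LN DT 4 has 202 CPM of Entpd1 at a B cell sum of 94.8 CPM. LN DT 2 and 3 have 85.4 and 87.7 CPM of Entpd1 at B cell sums of 853 and 816 CPM.

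Nt5e, the gene of the enzyme that forms adenosine from AMP, did not differ past the threshold in any comparison, and its spread between replicates was wide. Nt5e (ENSMUSG00000032420, chromosome 9, 88327197 to 88372092, plus strand) has 9 exon blocks over 8602 bases. It had 0, 28.4, 3.74 and 30.1 CPM in lung DT libraries 1 to 4, against 34.8, 15.3, 25.4 and 28.6 CPM in lung PBS libraries 1 to 4. LN DT libraries 1 to 4 had 19.9, 22.3, 34.7 and 44.8 CPM, against 59.5, 14.3, 35.3 and 33.6 CPM in LN PBS libraries 1 to 4. Lung DT 1 and 3 were the 2 lowest of all libraries, and all other libraries lay between 14.3 and 59.5 CPM.

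The 2 low lung DT values were 0 and 27 counts, against 227 and 230 counts in the other lung DT libraries. A count of 0 in lung DT 1 allows up to 0.43 CPM at 3 counts, counting error only. Of 1348 genes with a similar mean in the other 15 libraries (23.0 to 35.9 CPM, with Nt5e at 28.7), 2.37% were also at 0 in lung DT 1, against 0.0729% to 1.44% of such genes in the other libraries. The pooled SD of log2 CPM within groups was 1.72 for Nt5e, larger than that of 97.5% of 8854 genes at a mean of at least 10 CPM, for which the median was 0.561. The log2 fold change of lung DT over lung PBS was -0.74 ± 0.84 (95% interval -2.51 to 1.03; adjusted p = 0.709, edgeR's quasi-likelihood test), and without lung DT 1 it was -0.36, without lung DT 4 -1.33. LN DT over LN PBS gave -0.23 ± 0.832 (interval -1.98 to 1.52), with the sign turning without LN PBS 1 (0.13) and with the mitochondrial covariate (0.44).

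Between tissues, Nt5e means were lower in lung, at 15.6 ± 15.9 CPM in lung DT and 30.4 ± 11.6 CPM in LN DT, and at 26 ± 8.14 CPM in lung PBS and 35.7 ± 18.5 CPM in LN PBS. The log2 fold changes were -0.96 ± 0.842 among DT libraries (interval -2.74 to 0.81) and -0.45 ± 0.834 among PBS libraries (interval -2.21 to 1.30), both with overlapping groups. The paired fit of the DT libraries gave -2.11 (adjusted p = 0.372, edgeR's quasi-likelihood test). These intervals are wide on both sides of 0, so a moderate difference was not detectable at this spread. Ordered by mean, LN PBS came first, then LN DT, then lung PBS and then lung DT. No tested pair passed, and LN DT was not tested against lung PBS, nor lung DT against LN PBS.

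Adora2a, the gene of the A2a adenosine receptor, was present in all libraries and did not differ past the threshold in any comparison. Adora2a (ENSMUSG00000020178, chromosome 10, 75316943 to 75334788, plus strand) has 5 exon blocks over 3062 bases. Lung DT libraries 1 to 4 had 37.0, 86.3, 153 and 182 CPM, against 207, 140, 125 and 116 CPM in lung PBS libraries 1 to 4. LN DT libraries 1 to 4 had 12, 93.2, 96.3 and 144 CPM, against 95.1, 90.4, 112 and 92.6 CPM in LN PBS libraries 1 to 4. The LN PBS libraries lay close together, while both DT groups spread widely, with library number 1 lowest in each.

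The log2 fold change of DT over PBS was -0.36 ± 0.52 in lung (95% interval -1.45 to 0.73; adjusted p = 0.778, edgeR's quasi-likelihood test) and -0.18 ± 0.52 in LN (interval -1.27 to 0.92; adjusted p = 0.935). Without lung DT 1 the lung value was -0.11, and without LN DT 1 the LN value was 0.15. The fit with the mitochondrial covariate gave 0.51 in both tissues. Every lung PBS library lay above every LN PBS library for Adora2a, at 147 ± 41.5 CPM and 97.6 ± 10.0 CPM, but the log2 fold change of 0.59 ± 0.521 (interval -0.51 to 1.69; adjusted p = 0.655) did not pass, and 9.25% of all genes showed the same separation. Among DT libraries, lung had 115 ± 65.4 CPM and LN 86.3 ± 54.6 CPM, a log2 fold change of 0.41 ± 0.52 (interval -0.69 to 1.5). The order of means was lung PBS, lung DT, LN PBS, LN DT, with no tested pair past the threshold. Lung DT was not tested against LN PBS, nor lung PBS against LN DT.

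Of the other adenosine receptor genes, Adora2b passed the filter with at most 55 counts in a library, and Adora1 and Adora3 did not pass, with at most 2 and 25 counts. Adora2a was thus the adenosine receptor gene with more than 55 counts in any of these NK libraries. Its within-group SD of log2 CPM was 0.974, above that of 84.3% of genes.

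Ada, whose product deaminates adenosine, was the steadiest member. Ada (ENSMUSG00000017697, chromosome 2, 163726584 to 163750239, minus strand) has 12 exon blocks over 2002 bases. It had 140, 77.9, 80.9 and 93.3 CPM in lung DT libraries 1 to 4, against 125, 92.1, 111 and 96.3 CPM in lung PBS libraries 1 to 4. LN DT libraries 1 to 4 had 133, 86.1, 77.4 and 163 CPM, against 125, 143, 152 and 169 CPM in LN PBS libraries 1 to 4. Over all 16 libraries the highest value was 2.19 times the lowest, against 10.9 times for Entpd1 and 17.3 times for Adora2a, and its within-group SD of log2 CPM, 0.347, was larger than that of 13.1% of genes.

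LN DT 2 and 3 lay below every LN PBS library for Ada, and LN DT 1 and 4 lay inside the LN PBS values. LN DT averaged 115 ± 40.4 CPM and LN PBS 147 ± 18.3 CPM, a log2 fold change of -0.36 ± 0.267 (95% interval -0.92 to 0.2; adjusted p = 0.633, edgeR's quasi-likelihood test). Limma-voom with quality weights gave -0.84 and passed (adjusted p = 0.00213). In lung the log2 fold change was -0.12 ± 0.268 (interval -0.68 to 0.45; adjusted p = 0.868), at 98 ± 28.9 CPM in DT and 106 ± 15 CPM in PBS libraries, and 0.23 with the mitochondrial covariate. The lung PBS libraries did not overlap those of LN PBS, although lung PBS 1 and LN PBS 1 both round to 125 CPM, and the log2 fold change of -0.47 ± 0.268 (interval -1.04 to 0.09; adjusted p = 0.408) did not pass, and 9.91% of all genes showed a separation of that direction. Among DT libraries, lung over LN gave -0.23 ± 0.268 (interval -0.79 to 0.33). Ordered by mean, LN PBS came first, then LN DT, then lung PBS and then lung DT, with no tested pair past the threshold. Here too LN DT was not tested against lung PBS, nor lung DT against LN PBS.

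For Nt5e, Adora2a and Ada the difference between the DT differences, LN minus lung, was 0.51 ± 1.18, 0.18 ± 0.734 and -0.24 ± 0.378 on the log2 scale (adjusted p = 1 for each, edgeR's quasi-likelihood test). The intervals were -1.97 to 2.99 for Nt5e, -1.36 to 1.73 for Adora2a and -1.04 to 0.55 for Ada. Ada had the narrowest interval and Nt5e the widest.

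**Figure D4:**
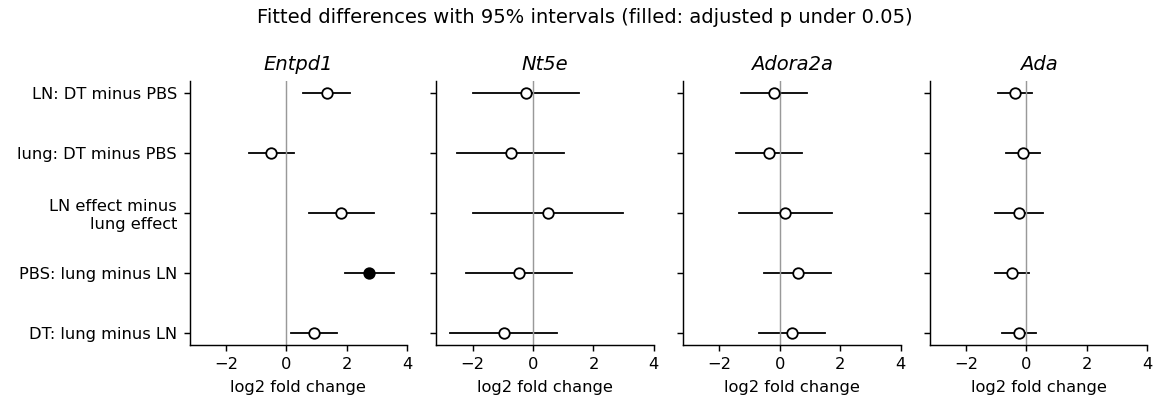
Fitted log2 fold changes (horizontal axes) of the 4 genes in 5 comparisons, with 95% intervals, filled where the adjusted p is under 0.05. The one filled point is Entpd1 in lung PBS over LN PBS, at 2.75, and the Nt5e intervals are the widest.

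The members did not follow one another through the DT libraries in one way. LN DT 4 was the highest of its group for all 4 genes, and lung DT 4 was the highest of its group for Entpd1, Nt5e and Adora2a. LN DT 1 and lung DT 1, which stood apart on the second principal component, were the lowest of their groups for Entpd1, Nt5e and Adora2a, whereas lung DT 1 was the highest of its group for Ada and LN DT 1 was next to the highest. With both number-1 DT libraries left out, 0 members passed in either DT comparison, against 0.165% of all genes in LN and 3.36% in lung. Entpd1 in LN was then at 1.59 (adjusted p = 0.0529, edgeR's quasi-likelihood test).

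The wider pathway was read from a list of 54 further genes of nucleotide and adenosine handling, of which 36 passed the filter. In LN, DT over PBS was above 0 for 15 and below 0 for 21, with a median log2 fold change of -0.21 against 0.08 over all genes, and 0 passed by edgeR. At an unadjusted p under 0.05 there were 3 of 36, or 8.33%, against 11.8% of all genes. DESeq2 called 2 list genes (5.56%, against 2.34% of all genes) and limma-voom 7 (19.4%, against 26.7%). In lung it was above 0 for 17 and below 0 for 19, with a median of -0.07 against 0.09, and 0 passed by edgeR. Unadjusted there were 5 of 36, or 13.9%, against 14.7% of all genes, and DESeq2 called 1 (2.78%, against 3.27%) and limma-voom 0 (against 3.16%). Neither DT comparison thus had a list gene past the threshold by edgeR. The difference between tissues in the DT effect had 0 calls by any of the 3 tools (2 unadjusted by edgeR), with a median of 0.10. Of the further ectonucleotidase genes, Entpd2 and Entpd3 had at most 3 and 0 counts in a library, and Entpd8 had 30 counts in 1 library and 0 in the rest.

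The 3 list genes with the smallest p in LN, Xdh, Cd38 and P2rx7, are named with their values. None of the 3 passed by edgeR with all libraries. DESeq2 called Xdh and P2rx7, among 2.34% of all genes, and limma-voom called all 3, among 26.7%. Xdh, the gene of the oxidase that turns hypoxanthine into uric acid downstream of inosine, had 82.6, 254, 291 and 315 CPM in LN DT, against 57.2, 71.0, 45.9 and 78.2 CPM in LN PBS. The groups did not overlap, which held for 5.05% of all genes in that direction, and the log2 fold change was 1.90 ± 0.481 (adjusted p = 0.15, edgeR's quasi-likelihood test). Xdh passed by edgeR in LN and in lung once both number-1 DT libraries were left out, when 0.165% of all genes passed in LN and 3.36% in lung. Cd38, the gene of an NAD-consuming ectoenzyme, was 109 ± 25.9 CPM in LN DT and 57.7 ± 15.4 CPM in LN PBS (log2 fold change 0.91 ± 0.38, adjusted p = 0.355). P2rx7, the gene of an ATP-gated channel, had 48 counts summed over LN DT and 0 over LN PBS, and 24 of the 48 were in LN DT 2. Its ratio was 18 against a floor of 3 counts over the group, with a 95% counting interval from 14.1 upward (adjusted p = 0.235, edgeR's quasi-likelihood test).

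In lung, Enpp1, whose product cleaves extracellular nucleotides including ATP and cyclic GMP-AMP, had 24.7, 11.5, 16.8 and 35.0 CPM in lung DT, against 67.2, 33.3, 85.6 and 65.8 CPM in lung PBS. Only lung DT 4 reached above the lowest lung PBS library, and the log2 fold change was -1.52 ± 0.395 (adjusted p = 0.122, edgeR's quasi-likelihood test). Enpp1 passed by DESeq2, which called 3.27% of all genes in lung. By edgeR it passed once both number-1 DT libraries were left out, when 3.36% of all genes passed in lung. P2ry12, an ADP receptor gene, had 4 counts summed over lung DT and 65 over lung PBS, a ratio of 0.0619 (95% counting interval 0.0164 to 0.166; adjusted p = 0.283). Dpp4, whose product CD26 anchors adenosine deaminase at the cell surface in humans, was 11.8 ± 12.7 CPM in lung DT and 2.16 ± 0.816 CPM in lung PBS, with 0 counts in lung DT 4 (log2 fold change 2.46 ± 1.04, adjusted p = 0.289).

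Between tissues, the shares of list genes called were near those of all genes. Among PBS libraries 21 list genes were above 0 and 15 below, with a median log2 fold change of 0.23 against -0.01 over all genes, and 1 of 36 rose (2.78%, against 3.61% of all genes called), P2ry10, a receptor gene of the P2Y family by name that is known for binding lysophospholipids. P2ry10 had 294, 257, 596 and 490 CPM in lung PBS, against 156, 90.8, 102 and 82.1 CPM in LN PBS, without overlap. Its log2 fold change was 1.92 ± 0.34 (adjusted p = 0.00332, edgeR's quasi-likelihood test). P2rx7 had 70 counts over lung PBS, all of them in lung PBS 1 and 2, and 0 over LN PBS. Its ratio was 27 against the same floor of 3 counts, with a 95% counting interval from 21.4 upward (adjusted p = 0.053, edgeR's quasi-likelihood test). Xdh was 154 ± 34.9 CPM in lung PBS and 63.1 ± 14.4 CPM in LN PBS (log2 fold change 1.29 ± 0.473, adjusted p = 0.152, same test). DESeq2 called P2rx7 but not Xdh here, among 8.44% of all genes. Limma-voom called Xdh but not P2rx7, among 16.3%.

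Among DT libraries 18 list genes were above 0 and 18 below, with a median of 0.05 against -0.04, and 3 of 36 rose in lung (8.33%, against 6.75% of all genes called). P2ry10 had 340, 463, 347 and 564 CPM in lung DT, against 233, 98.4, 135 and 121 CPM in LN DT (log2 fold change 1.55 ± 0.336, adjusted p = 0.0103, edgeR's quasi-likelihood test), again without overlap, as for 5.57% of all genes. P2rx4, another ATP-gated channel gene, had 35.2, 150, 160 and 19.0 CPM in lung DT, against 10.1, 30.9, 30.4 and 12.3 CPM in LN DT (2.12 ± 0.578, adjusted p = 0.0348). Its 2 high libraries, lung DT 2 and 3, are those with macrophage sums of 3840 and 3440 CPM, a relation whose part was not tested. The P2rx4 call was lost without any one of lung DT 2, lung DT 3 or the 4 LN DT libraries (adjusted p up to 0.102, edgeR's quasi-likelihood test). By the same test it was also lost with scaling by total counts alone (0.0585) and in an unpaired fit of only the 8 DT libraries (0.161). Bst1, the gene of CD157, a relative of CD38, had 164, 51, 15 and 0 counts in lung DT libraries 1 to 4, against 1, 1, 1 and 0 in LN DT (adjusted p = 0.0357). The summed counts give a ratio of 79.2 (counting interval 26.8 to 387), and the call was lost without lung DT 1 or any one LN DT library (adjusted p up to 0.0998). Limma-voom did not call Bst1 (adjusted p = 0.0952). Nor did edgeR's quasi-likelihood test in an unpaired fit of only the 8 DT libraries (0.104) or without both number-1 DT libraries (0.103). The paired fit of the 8 DT libraries also lost the Bst1 call (adjusted p = 0.0905, edgeR's quasi-likelihood test), while P2ry10 (0.0342) and P2rx4 (0.0375) passed in it.

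**Figure D5:**
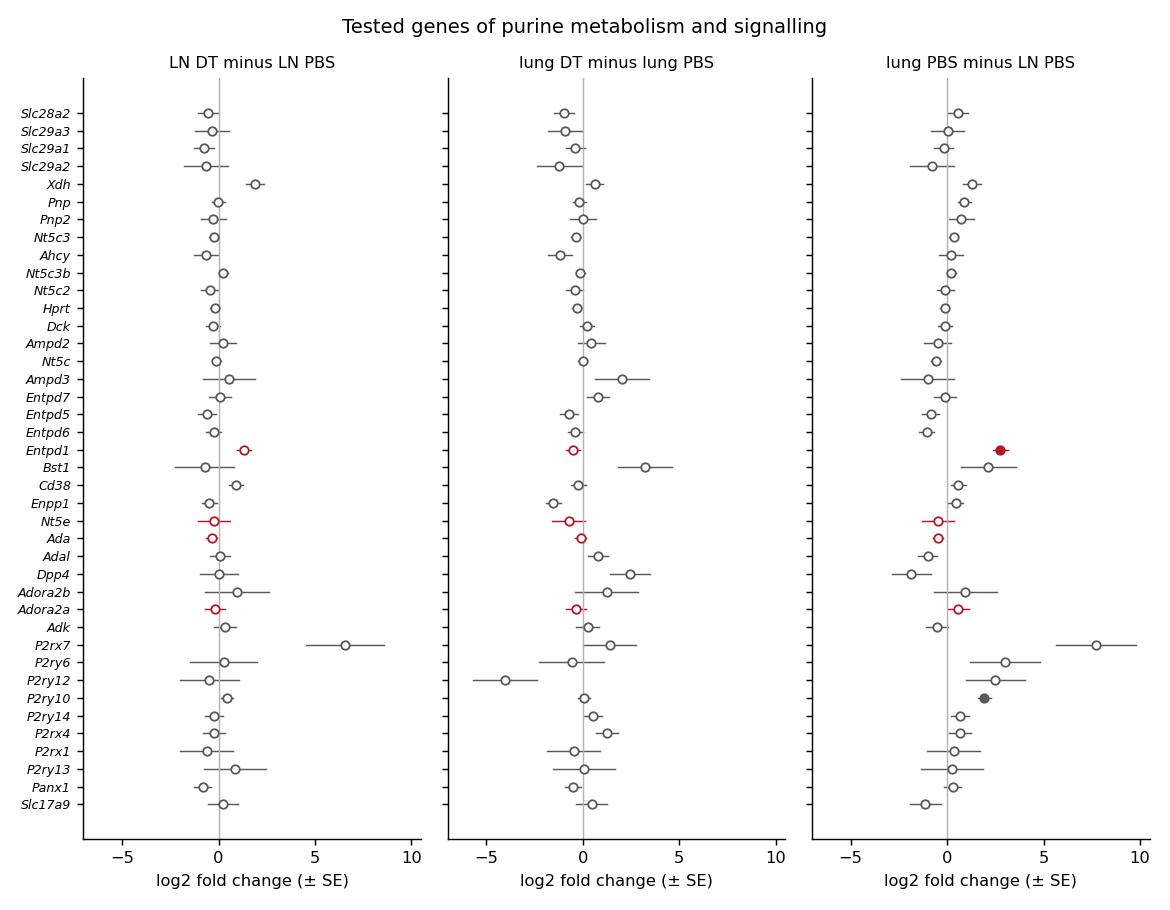
Log2 fold change with 1 SE (horizontal axes) of the 36 tested list genes and the 4 members (red) for LN DT over LN PBS, lung DT over lung PBS and lung PBS over LN PBS, filled where the adjusted p is under 0.05. Filled points are Entpd1 at 2.75 and P2ry10 at 1.92, both in the tissue comparison, and the far P2rx7 points set summed counts of 48 and 70 against 0 and are no measure of size.

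The genes whose levels ran most like each member over the 16 libraries are given as a description, since the libraries share tissue, treatment and depth. For Entpd1 they were Irf8, a transcription factor gene of NK and myeloid cells, with a Pearson r of log2 CPM of 0.95, Serpinb9b at 0.932 and Csrnp1 at 0.93. The r of the deviations from the group means was lower for each, at 0.722, 0.613 and 0.832. Irf8 averaged 2210 ± 882 CPM in lung DT and 2650 ± 185 CPM in lung PBS, and 884 ± 228 CPM in LN DT and 524 ± 141 CPM in LN PBS, the same order of groups as Entpd1.

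For the other members the r of the deviations was close to the pooled r. Nt5e ran most like Mtr (r of 0.984, and 0.986 for the deviations) and Ttc13 (0.968 and 0.961). Adora2a ran most like Clic4 (0.961 and 0.963), Acads (0.946 and 0.976) and Gpank1 (0.944 and 0.952). Ada ran most like Sdf4 (0.907 and 0.908), Nifk (0.898 and 0.852) and Mdh2 (0.892 and 0.92). The lowest library of Nt5e was lung DT 1, at 0 CPM, and that of Adora2a was LN DT 1, at 12 CPM, and both enter these r values.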

How the data were processed

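NK cells were measured by bulk RNA sequencing in 16 libraries. The series' design names the 4 of a group as biological replicates, so within a group a library stands for an animal. Whether a lung and an LN library came from the same mouse is not given, and the main fit treated all 16 libraries as independent. HISAT2 (alignment to GRCm38) and HTSeq (counting) are named, per the submitters' processing notes, with versions not given in the sources used here. Raw counts per gene are what the authors deposited, and all 16 columns were used. Whether counting used strand is not given.

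Groups were read from the treatment and tissue labels. Genes were kept by filterByExpr (minimum count 10, minimum total 15), normalised by TMM and passed to the quasi-likelihood method of edgeR 4.0.16 under R 4.3.3, with 1 mean per group over all 16 libraries (residual degrees of freedom 12, common biological coefficient of variation 0.621). The 5 contrasts were tested two-sided, with Benjamini-Hochberg adjustment over 13940 genes and a threshold of 0.05. DESeq2 1.42.0 and limma 3.58.1 (voom with quality weights) were alternatives, beside other scalings and filters, a mitochondrial covariate, the replicate number as a block and leaving out libraries. The code was tested on simulated counts.

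The 4 members and all gene lists were chosen with earlier results of these data known. List genes are named where called, and otherwise the 3 with the smallest p for DT in LN, DT in lung and lung over LN among PBS libraries. For each member the 3 genes of highest Pearson r of log2 CPM (prior count 2, mean of at least 10 CPM) are named, except 1 that is not reported here. Genes reported within Entpd1 share no exon base with it.

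Replicate numbers were checked by the correlation of deviations from group means. Between lung DT and LN DT every same-numbered pair was above 0.1 (0.412, 0.194, 0.23 and 0.184 for numbers 1 to 4). Each lung DT library had the LN DT library of its own number as its best match. This pairing was read from the data, since the labels do not state it, and entered only the alternative fits with the number as a block. The main lung DT over LN DT results came from the unpaired fit of all libraries. In the other comparisons at least 1 pair was below 0.1. Counting intervals and floors cover counting error only.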

Additional observations from a re-analysis of the deposited data

Results flagged for a closer look

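No member had a library that stood apart from the rest of its group by Dixon's test for 4 samples. Among the 52 sets of 4 libraries examined, 7 had 1 library far from the others, all in other list genes, where chance gives about 1 in 20. Cd38 was high in lung DT 1, at 144 CPM, and low in LN PBS 2, at 34.9 CPM. P2rx4 was low in LN PBS 2, at 18.3 CPM. P2rx7 was high in lung DT 2, at 19.7 CPM (157 counts). The others were of few counts. Bst1 was high in LN PBS 3, at 0.62 CPM. P2ry12 was high in LN PBS 3, at 1.61 CPM, and in lung DT 2, at 0.501 CPM. The causes were not tested.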

How the results depend on the processing

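For the members, 540 values under alternatives were set against 20 fitted differences: 523 kept direction and side of the threshold, 6 newly passed it, 0 lost it and 11 turned sign. Apart from the LN minus lung difference, the alternatives include leave-one-out fits that drop a library outside the comparison. Those fits move the fold change little, so they add to the values that stayed the same. Entpd1 in lung PBS over LN PBS passed in all 27 alternatives (2.57 to 2.98, adjusted p up to 0.00386). Newly past were Entpd1 in LN with DESeq2 (1.32) and limma-voom (1.28), Ada in LN with limma-voom (-0.84), and Entpd1 in lung DT over LN DT with limma-voom (1.19), the mitochondrial covariate (1.23) and without LN DT 4 (leave-one-out 0.69 to 1.46). With the mitochondrial covariate signs turned for Nt5e (0.44) and Adora2a (0.51) in LN and for Entpd1 (0.38), Adora2a (0.51) and Ada (0.23) in lung. Entpd1 in LN kept its sign with that covariate, at 1.94, and did not pass (adjusted p = 0.189, edgeR's quasi-likelihood test). Leaving out both number-1 DT libraries turned Adora2a in LN (0.18). Leave-one-out values ran from -0.49 to 0.13 for Nt5e in LN, -0.54 to 0.15 for Adora2a in LN and -0.18 to 0.55 for the LN minus lung difference of Adora2a, and from 0.80 to 1.55 for Entpd1 in LN. The cause was not tested.

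The replicate block changed no member call in the fit of all libraries (Entpd1 in LN 1.24, in lung -0.55). In the paired fit of DT libraries, added after seeing the data, 375 genes were higher and 160 lower in lung, against 554 and 387. Outside that comparison the numbers did not pair the libraries.

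Counts over all genes depended on the tool. Over all alternatives, higher calls ranged from 0 to 2076 in LN (9 in the fit reported) and 0 to 275 in lung (8), and lower calls from 0 to 1646 (0) and 0 to 297 (7). Tissue calls ranged from 210 to 1233 higher (377) and 60 to 1040 lower (126) among PBS libraries, and from 222 to 1027 (554) and 88 to 781 (387) among DT libraries. The tissue difference in the DT effect had 0 to 18 higher calls (1) and 0 to 1 lower (0). List genes called ranged from 0 to 3 higher and 0 to 4 lower in LN, 0 to 1 each way in lung, 1 to 4 higher and 0 to 2 lower in both tissue comparisons. Low counts limit P2rx7, P2ry12, Bst1 and Adora2b.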
